A study of Mus musculus with 16 samples.

Results

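The addition of an internal tandem duplication of Flt3 (Flt3-ITD) to the loss of 1 copy of Runx1 was examined by ATAC-seq in haematopoietic progenitors of mice 21 days old, described in the labels as multipotent progenitors (MPP). Members were taken by sample title, and comprised 2 samples of genotype Flt3-ITD/Runx1-het and 2 samples of genotype Runx1-het, 4 of the 16 samples of the series. Each group had 1 pooled peak list, so the comparison rests on 2 of 8 lists. Both groups carry the Runx1-het genotype, and they differ by Flt3-ITD. The 6 other lists came from mice of the same age. They were Flt3-ITD and wild type in the same set of samples (set 1), and NUP98-HOXD13/Flt3-ITD, Flt3-ITD, NUP98-HOXD13 and wild type in a second set (set 2). The labels do not give the construction of the alleles, a Cre driver, the number of animals per sample or the marker gate of the cells. No value per sample was used here, so no spread between samples, no standard deviation and no p-value between genotypes could be computed, and read depth was unknown. Every difference below is a description of 2 lists with no replicate check.

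FLT3 is a receptor tyrosine kinase of early haematopoietic progenitors, and the internal tandem duplication makes it signal without its ligand, with STAT5 among the factors it activates. RUNX1 is a DNA-binding transcription factor needed for lymphoid and myeloid differentiation and for platelet formation. Both genes are recurrently mutated in acute myeloid leukaemia. In ATAC-seq the Tn5 transposase inserts adapters into open DNA, so a peak marks an accessible promoter or a distal regulatory region.

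The 6 promoters printed here carry the patterns described below. The promoters of Ctsg (cathepsin G, a protease of neutrophil granules), Ly6c2 (a monocyte and neutrophil surface protein), Crisp3 (a secreted protein of neutrophil granules) and Hopx (an atypical homeodomain protein) had the only or the stronger peak in Flt3-ITD/Runx1-het, and those of Rag1 (the recombinase of antigen receptor genes) and Slamf1 (CD150, a surface marker of stem cells) had a weaker peak there than in Runx1-het. Each line gives the 250 bases before the gene start in RefSeq GRCm38.p6, the build of the peaks, 5′ to 3′ on the strand of the gene. Capitals mark the STAT letters TTCNNNGAA, the RUNX letters TGTGGT and the PU.1 letters GAGGAAGT, searched on both strands, and no matches overlapped in these windows.
Ctsg, chr14:56102575-56102824, minus strand: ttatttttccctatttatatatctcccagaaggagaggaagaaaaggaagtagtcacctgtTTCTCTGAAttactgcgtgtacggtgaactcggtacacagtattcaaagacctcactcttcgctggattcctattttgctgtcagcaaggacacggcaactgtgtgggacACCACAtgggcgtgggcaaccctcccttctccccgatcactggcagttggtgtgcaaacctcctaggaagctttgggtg
Ly6c2, chr15:75111972-75112221, minus strand: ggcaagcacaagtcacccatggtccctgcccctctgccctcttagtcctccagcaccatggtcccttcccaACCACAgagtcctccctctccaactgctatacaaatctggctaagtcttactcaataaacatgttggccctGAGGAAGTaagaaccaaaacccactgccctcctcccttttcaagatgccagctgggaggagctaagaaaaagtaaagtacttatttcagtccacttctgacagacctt
Crisp3, chr17:40242289-40242538, minus strand: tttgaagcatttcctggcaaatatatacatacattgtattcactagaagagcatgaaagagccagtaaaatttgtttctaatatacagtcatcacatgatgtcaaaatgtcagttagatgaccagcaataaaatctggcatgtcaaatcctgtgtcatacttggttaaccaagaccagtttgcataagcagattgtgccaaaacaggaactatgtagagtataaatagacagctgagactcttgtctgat
Hopx, chr5:77115124-77115373, minus strand: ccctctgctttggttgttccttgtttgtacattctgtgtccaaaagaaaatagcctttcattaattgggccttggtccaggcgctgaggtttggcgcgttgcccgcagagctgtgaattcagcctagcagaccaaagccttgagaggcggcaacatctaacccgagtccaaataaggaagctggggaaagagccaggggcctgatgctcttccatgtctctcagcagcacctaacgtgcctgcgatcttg
Rag1, chr2:101649533-101649782, minus strand: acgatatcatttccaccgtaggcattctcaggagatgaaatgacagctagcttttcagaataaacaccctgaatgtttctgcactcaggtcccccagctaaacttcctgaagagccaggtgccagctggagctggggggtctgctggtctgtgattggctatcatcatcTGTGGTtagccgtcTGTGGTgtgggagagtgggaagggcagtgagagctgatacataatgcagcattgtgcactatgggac
Slamf1, chr1:171766882-171767131, plus strand: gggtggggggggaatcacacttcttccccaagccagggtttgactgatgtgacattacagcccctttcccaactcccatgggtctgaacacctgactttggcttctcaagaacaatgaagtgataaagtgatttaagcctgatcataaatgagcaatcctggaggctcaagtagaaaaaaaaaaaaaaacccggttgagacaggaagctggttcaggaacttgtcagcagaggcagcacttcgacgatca
The Ctsg window held 1 STAT match and 1 RUNX match, the Ly6c2 window 1 RUNX match and 1 PU.1 match, and the Rag1 window 2 RUNX matches. Among 20062 RefSeq promoter windows running from 250 bases before to 50 bases after a gene start, the RUNX letters occurred in 14.8%, the STAT letters in 7.77% and the PU.1 letters in 3.19%. A match describes the letters only. Ly6c2 belongs to a family of near-identical genes, so its reads may be shared with a neighbouring copy, and its values are uncertain.

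The lists were of similar size on the 19 autosomes, to which all values refer. The Flt3-ITD/Runx1-het list held 119192 peaks over 46.7 Mb, with a median −log10 p of 34.6, and the Runx1-het list held 124657 peaks over 48.6 Mb, with a median of 33.3. As a check of the labelled cell type, promoters of 10 of 11 MPP identity genes carried a peak in the Flt3-ITD/Runx1-het list and 11 of 11 in the Runx1-het list, Tal1 being the one without a peak in the double mutant. B cell marker promoters carried a peak at 0 of 7 genes in the Flt3-ITD/Runx1-het list and at 1 of 7 in the Runx1-het list, and T and NK cell promoters at 4 of 13 genes in Flt3-ITD/Runx1-het and 5 of 13 in Runx1-het. Promoters of dendritic cell markers, some of which progenitors also express, carried a peak at 8 of 12 genes in Flt3-ITD/Runx1-het and 9 of 12 in Runx1-het, with a median percentile of 85.2 in Flt3-ITD/Runx1-het and 82.2 in Runx1-het. Mast cell, basophil and eosinophil promoters had a peak at 6 of 11 genes and macrophage promoters at 3 of 5, in each of the 2 lists. The Flt3 promoter, chr5:147399931-147400738, had a −log10 p of 716 in the Flt3-ITD/Runx1-het list and 722 in the Runx1-het list. The label Runx1-het could not be checked from peaks, since loss of 1 copy leaves a peak, and the Runx1 promoter at chr16:92697178-92698977 had a −log10 p of 148 in the Flt3-ITD/Runx1-het list and 79.9 in the Runx1-het list.

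Most accessible regions were held in common, and those found in 1 list only were weak. Merging of peaks that overlapped by at least 1 bp gave 96679 regions, of which 66953 (69.3%) were in both lists. Only in the Flt3-ITD/Runx1-het list were 14132 regions (14.6% of all), and only in the Runx1-het list were 15594 (16.1%). With the 119192 peaks of highest −log10 p from each list the counts were 14137 only in Flt3-ITD/Runx1-het and 15342 only in Runx1-het, which is 14.7% for Flt3-ITD/Runx1-het and 15.9% for Runx1-het. With the top 50000 peaks of each, 5981 regions (12.2%) were only in Flt3-ITD/Runx1-het and 5331 (10.9%) only in Runx1-het, so the list with more regions of its own was not the one with all peaks. Regions in 1 list only were narrow, with a median width of 345 bp in the Flt3-ITD/Runx1-het list and 351 bp in the Runx1-het list, against 622 bp for shared regions. They seldom overlapped a promoter window, in 1.38% of cases in Flt3-ITD/Runx1-het and 2.32% in Runx1-het, against 15.1% of shared regions. Among the weakest 25% of the regions of each list, 50.4% were absent from the other list in Flt3-ITD/Runx1-het and 54.8% in Runx1-het, while among the strongest 25% the shares were 0.138% in Flt3-ITD/Runx1-het and 0.0533% in Runx1-het.

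The 28 strong regions found only in the Flt3-ITD/Runx1-het list (0.029% of all regions) and the 11 found only in the Runx1-het list (0.0114%) were looked up in the 6 other lists. Strong here means the top 25% of a list by −log10 p. With the top 50000 peaks of each list 9 strong regions (0.0184%) were only in Flt3-ITD/Runx1-het and 5 (0.0102%) only in Runx1-het. The counts depended strongly on the processing, with 352 only in Flt3-ITD/Runx1-het and 330 only in Runx1-het under reciprocal overlap of 50%, and 139 only in Flt3-ITD/Runx1-het and 85 only in Runx1-het by fold enrichment. The genotype patterns that follow were described for the 28 and the 11, beside all regions in 1 list only. All 28 also had a peak in the Flt3-ITD list of set 1, and 19 of these had none in the wild-type list of set 1. Of all 14132 regions only in Flt3-ITD/Runx1-het, 41.7% had a peak in Flt3-ITD, and 24.4% had one there and none in wild type. All 11 had a peak in both the Flt3-ITD and the wild-type list. Of all 15594 regions only in Runx1-het, 41.1% had a peak in Flt3-ITD and 37.3% in wild type. Of the 28 regions, 9 had a peak in all 6 other lists, so that the Runx1-het list was the one without a peak. The share was 2.87% for all regions only in Flt3-ITD/Runx1-het. Of the 11 regions 9 had a peak in all 6 others, against 5.05% of all regions only in Runx1-het. These contrasts set strong regions beside weak ones, since all regions in 1 list only had a median percentile of 14.6 in either list. Of the shared regions, 91.4% had a peak in Flt3-ITD, 87.0% in wild type and 61.3% in all 6 others. A peak in Flt3-ITD and none in wild type was found at 8.65% of them. The part of peak strength in the contrasts was not tested.

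Syt1, which encodes a calcium sensor of vesicle release, had a region that followed Flt3-ITD across all 8 lists. That region inside the gene at chr10:108991266-108991858 had a −log10 p of 275 in Flt3-ITD/Runx1-het, 108 in Flt3-ITD of set 1, 64.6 in NUP98-HOXD13/Flt3-ITD and 67.0 in Flt3-ITD of set 2. No peak was listed there in Runx1-het, wild type of either set or NUP98-HOXD13. With that region counted, the Syt1 locus held 8 regions found only in the Flt3-ITD/Runx1-het list and 0 found only in the Runx1-het list. Pclo, which encodes a scaffold protein of synapses, had a region at 257 in Flt3-ITD/Runx1-het and 180 in Flt3-ITD of set 1, with no peak in Runx1-het or in wild type of set 1. A region 69212 bp from Col6a3, a collagen VI gene, had 186 in Flt3-ITD/Runx1-het and 124 in Flt3-ITD of set 1, and again no peak in Runx1-het or in wild type of set 1. Each of these genes is the nearest gene only. Trhr, the receptor of thyrotropin-releasing hormone, carried 149 in Flt3-ITD/Runx1-het and 17.8 in Flt3-ITD of set 1, with no peak in the 6 remaining lists.

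The strongest region absent from the Runx1-het list was of the other kind. The promoter of Zfp329, a zinc finger gene, had a −log10 p of 328 in Flt3-ITD/Runx1-het, 366 in Flt3-ITD and 363 in wild type of set 1, and a peak in all 4 lists of set 2. The promoter of Clec4a3, a C-type lectin gene, likewise had 185 in Flt3-ITD/Runx1-het, 305 in Flt3-ITD and 214 in wild type of set 1. In the opposite direction, the promoter of Clba1 had no peak in Flt3-ITD/Runx1-het, against 321 in Runx1-het, 255 in Flt3-ITD and 230 in wild type of set 1. The promoter of Polrmt, the mitochondrial RNA polymerase gene, had no peak in Flt3-ITD/Runx1-het, against 320 in Runx1-het, 308 in Flt3-ITD and 285 in wild type. Each of these 4 promoters had a peak in 7 of the 8 lists, and whether a filter removed the peak from the remaining list was not tested.

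Shared regions were compared by rank. Each was given its percentile by −log10 p among the 66953 shared regions in each list, and the shift is the percentile in Flt3-ITD/Runx1-het minus that in Runx1-het, in points. The ranks of the 2 lists had a Spearman correlation of 0.896 across regions, and the median size of a shift was 6.58 points. A shift of 25 points or more was found for 2482 regions in the direction of Flt3-ITD/Runx1-het (3.71%) and for 2357 regions in the direction of Runx1-het (3.52%). With equal numbers of peaks 2481 regions were higher in rank in Flt3-ITD/Runx1-het and 2357 lower, and with the top 50000 peaks of each list the shares were 4.52% higher and 4.4% lower. The sizes were close to those between lists of equal genotype from the 2 sets, where wild type of set 2 against wild type of set 1 gave 3.73% higher and 2.84% lower and the corresponding Flt3-ITD lists gave 5.37% higher and 5.24% lower. Any difference between the sets is part of those values too. Large shifts were rare at promoters, with 69 of 10090 promoter regions (0.684%) higher in rank in Flt3-ITD/Runx1-het and 117 (1.16%) lower, against 4.16% higher and 3.81% lower for other regions inside genes. Promoters made up 43.4% of the regions with a mean rank of 80 to 100, where regions of any kind seldom had such a shift (0.00769% higher and 0% lower), so the measure has little room at strong promoters.

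**Figure D1:**
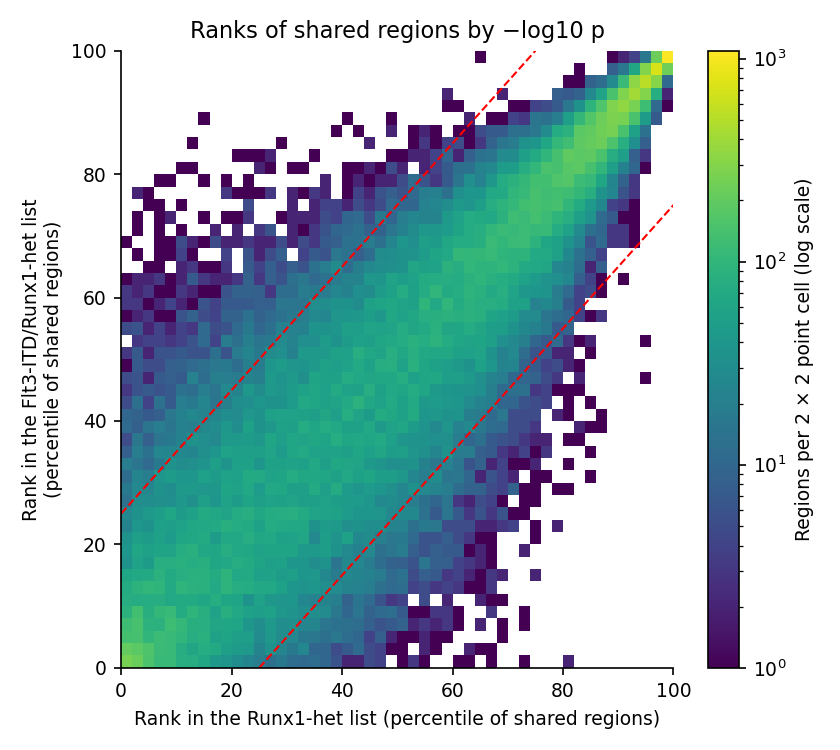
Percentile of each of the 66953 shared regions by −log10 p in the Flt3-ITD/Runx1-het list (vertical) and in the Runx1-het list (horizontal), as a density on a log colour scale, with dashed lines at shifts of 25 points. The strongest regions lie close to the diagonal, and the 2482 regions above the upper line and 2357 below the lower line come mainly from the middle ranks.

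The regions that ranked higher in Flt3-ITD/Runx1-het also tended to rank higher where Flt3-ITD was present on other backgrounds. Among the 2482 regions, those ranked in both lists of a pair stood higher in Flt3-ITD than in wild type of set 1 in 72.5% of cases, against 49.1% of all shared regions. In NUP98-HOXD13/Flt3-ITD against NUP98-HOXD13 the share was 65.0%, against 50.7% of all shared regions, and in Flt3-ITD against wild type of set 2 it was 73.6%, against 48.4%. In 2 pairs with no added Flt3-ITD the shares lay nearer to or below the background. They were 42.2% in wild type of set 2 against wild type of set 1, where the background was 48.0%, and 52.8% in NUP98-HOXD13 against wild type of set 2, where it was 50.5%. None of these pairs uses the Flt3-ITD/Runx1-het or the Runx1-het list, but the pairs share wild-type or NUP98-HOXD13 lists with one another.

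The 2357 regions that ranked lower in Flt3-ITD/Runx1-het showed the opposite tendency. They stood higher with Flt3-ITD in 35.9% of cases in set 1, in 35.1% on the NUP98-HOXD13 background and in 38.9% in set 2. They also stood higher in wild type of set 2 than in wild type of set 1 in 62.3% of cases, so these regions also differed between the wild-type lists of the 2 sets. In NUP98-HOXD13 against wild type of set 2, again without added Flt3-ITD, they stood higher in 43.0% of cases, against 50.5% of all shared regions. The part of such differences in the Flt3-ITD pattern was not tested. Of the 41066 shared regions ranked in all 8 lists, 13.2% stood higher with Flt3-ITD in all 3 other pairs, and of the 876 among them that ranked 25 points or more higher in Flt3-ITD/Runx1-het, 324 (37.0%) did so. Of the 1290 that ranked 25 points or more lower, 368 (28.5%) stood lower in all 3 other pairs, against 14.7% overall.

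**Figure D2:**
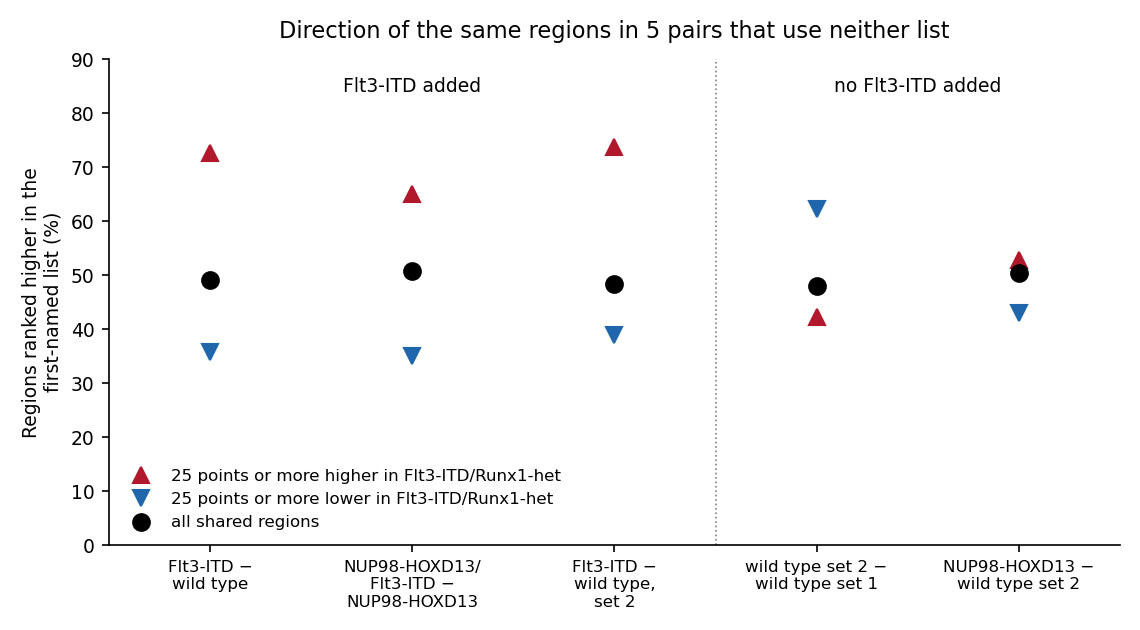
Share of regions ranked higher in the first-named list (vertical, percent) in 5 pairs of lists that use neither the Flt3-ITD/Runx1-het nor the Runx1-het list, for regions 25 points or more higher in Flt3-ITD/Runx1-het (upward triangles), 25 points or more lower (downward triangles) and all shared regions (circles). The upward triangles lie between 65.0% and 73.6% in the 3 pairs where Flt3-ITD is added and at 42.2% and 52.8% in the other pairs.

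Of the 41066 shared regions ranked in all 8 lists, 11 (0.0268%) ranked 25 points or more higher in all 4 pairs that add Flt3-ITD. A further 2 (0.00487%) ranked 25 points or more lower in all 4. Taken alone, a shift of that size was found higher with Flt3-ITD at 2.58% of regions and lower at 2.02% in Flt3-ITD against wild type of set 1, at 3.26% and 3.6% in NUP98-HOXD13/Flt3-ITD against NUP98-HOXD13, and at 5.2% and 4.98% in Flt3-ITD against wild type of set 2. The Crisp3 promoter, printed above, was the only promoter among the 11. Its region chr17:40242144-40242566 had a −log10 p of 187 in Flt3-ITD/Runx1-het and 33.7 in Runx1-het, 137 in Flt3-ITD and 28.0 in wild type of set 1, and 64.7 in NUP98-HOXD13/Flt3-ITD and 17.5 in NUP98-HOXD13. In set 2 the values were 47.5 in Flt3-ITD and 57.9 in wild type, in lists of very different size, and the rank was still 55.2 points higher in Flt3-ITD. Named genes near the other regions include Adgre5 (the leukocyte adhesion receptor CD97), Dock5 (an activator of the GTPase Rac) and Ppt1 (a lysosomal thioesterase). A region inside Adgre5 had 116 in Flt3-ITD/Runx1-het and 46.3 in Runx1-het, and 77.0 in Flt3-ITD and 34.2 in wild type of set 1. The 2 regions ranked lower in all 4 pairs were inside Arhgef26, with 26.6 in Flt3-ITD/Runx1-het and 82.8 in Runx1-het, and inside Gm1966, with 59.2 in Flt3-ITD/Runx1-het and 150 in Runx1-het. In addition, 74 of the 96679 regions (0.0765%) had a peak in each of the 4 Flt3-ITD lists of the series and in no other. The strongest of the 74 in the Flt3-ITD/Runx1-het list was that of Syt1, and 247 regions (0.255%) had the reverse pattern. The Flt3-ITD list of set 2 is the shortest of the 8, with 81961 peaks, which bears on the second count.

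Within set 1, Flt3-ITD was present with and without loss of Runx1, so regions were sorted by which of the 4 lists held them. Of 104347 regions, 55000 were in all 4 lists. The Flt3-ITD/Runx1-het and Flt3-ITD lists alone held 3349 regions, and 2166 had the reverse pattern. Without loss of Runx1, more regions were found only with Flt3-ITD than only in wild type, 16493 in Flt3-ITD and 9023 in wild type, which bears on the larger of these counts. In both Runx1-het lists only were 2889 regions, and 1389 were in both lists without it only. The patterns that follow neither mutation held 1212 regions in the Flt3-ITD/Runx1-het and wild-type lists only and 2753 in the Flt3-ITD and Runx1-het lists only. The Flt3-ITD/Runx1-het list alone held 6929 regions, and the Runx1-het list alone held 6920.

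Across the 55000 regions of all 4 lists, the shift between Flt3-ITD/Runx1-het and Runx1-het and the shift between Flt3-ITD and wild type had a Spearman correlation of 0.190. The points share the depth of the 4 pooled lists and their base composition, and the value is a description. The effect of the Runx1 genotype with and without Flt3-ITD gave 0.0515. The pairing that follows neither mutation, Flt3-ITD/Runx1-het minus wild type against Flt3-ITD minus Runx1-het, gave 0.139. The Flt3-ITD pairing thus stood only slightly above the mixed one.

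Genes of FLT3 signalling and STAT5 response had more regions higher in rank in Flt3-ITD/Runx1-het than lower. Each region was given to the nearest protein-coding gene within 100 kb, and 92.1% of regions had one. Of 146 shared regions near 24 genes, 10 (6.85%) ranked 25 points or more higher and 3 (2.05%) lower, against 3.67% and 3.29% over all genes. The median shift of the list was 1.69 points with −log10 p and −0.61 with fold enrichment, so the direction of the list as a whole depended on the measure. Between Flt3-ITD and wild type of set 1 the list had a median of −0.18 points and 49.3% higher. Over all genes that pair gave −0.17 points and 48.6% higher, so the list as a whole stood near all genes there. In a bulk list, a different share of a cell type and a different accessibility per cell cannot be told apart.

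Osm encodes oncostatin M, a cytokine induced by STAT5. Its region at chr11:4232604-4233092, 3693 bp outside the gene, had a −log10 p of 88.5 in Flt3-ITD/Runx1-het and 14.9 in Runx1-het, and 59.0 in Flt3-ITD with no peak in wild type. In set 2 the region had a peak of 41.1 in NUP98-HOXD13/Flt3-ITD and 15.7 in Flt3-ITD, and none in NUP98-HOXD13 or wild type. In each of the 4 pairs the list with Flt3-ITD thus held the only or the stronger peak. The shift of the Osm region between Flt3-ITD/Runx1-het and Runx1-het was 58.1 points, and 13.1 points where fold enrichment gave the ranks. Socs1, an inhibitor of cytokine receptors induced by STAT5, had a region 14605 bp away with 100.2 in Flt3-ITD/Runx1-het and no peak in Runx1-het, and 67.2 in Flt3-ITD and 36.6 in wild type. Regions of 4 more members of the pathway, chosen after their values were seen, were also higher in rank in Flt3-ITD/Runx1-het. Socs2, a further such inhibitor, had a region with 126 in Flt3-ITD/Runx1-het and 53.6 in Runx1-het, and 148 in Flt3-ITD and 66.3 in wild type. Its locus held 8 regions found only in Flt3-ITD/Runx1-het and 2 found only in Runx1-het. Cish, which encodes another STAT5-induced inhibitor, had a region with 104 in Flt3-ITD/Runx1-het and 52.1 in Runx1-het, and 66.2 in Flt3-ITD and 47.5 in wild type. The Stat5b promoter had 129 in Flt3-ITD/Runx1-het and 56.0 in Runx1-het, and 79.2 in Flt3-ITD and 50.3 in wild type. The Stat5b locus as a whole went the other way, with 0 regions only in Flt3-ITD/Runx1-het, 4 only in Runx1-het and a median shift of −1.15 points over 5 shared regions. Myc, a driver of cell growth, had a region with 49.0 in Flt3-ITD/Runx1-het and 15.3 in Runx1-het, and 33.1 in Flt3-ITD and 17.8 in wild type. At these 4 regions each list with Flt3-ITD stood above its partner without it, in both Runx1 backgrounds of set 1. They were picked with these values known, so that order came with the choice and describes these regions only. Over all ranked regions of the locus, the median shift between Flt3-ITD and wild type was 21.7 points at Socs2 and 13.4 at Stat5b. It was 3.77 points at Myc and −3.98 at Cish.

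Other members of the pathway did not follow that order. Ptpn11, which encodes the phosphatase SHP2, had a region with 80.9 in Flt3-ITD/Runx1-het and 20.7 in Runx1-het, but no peak in Flt3-ITD and 21.7 in wild type. Gab2, an adaptor that binds SHP2, had a region at 21.5 in Flt3-ITD/Runx1-het and 64.0 in Runx1-het, and 49.1 in Flt3-ITD and 36.9 in wild type. Il2ra, the interleukin-2 receptor alpha chain, had a region 13439 bp away with no peak in Flt3-ITD/Runx1-het and 47.1 in Runx1-het. Flt3 itself had an intragenic region at chr5:147339517-147340013 with 31.4 in Flt3-ITD/Runx1-het and 88.5 in Runx1-het, and 48.7 in Flt3-ITD and 70.0 in wild type. The shift at this Flt3 region was −38.6 points, and −19.2 where fold enrichment gave the ranks. At Runx1, a region at chr16:92653837-92654257 ranked 27.3 points higher in Flt3-ITD/Runx1-het and one at chr16:92807588-92808212 had a shift of −26.1 points, and the promoter region named above had a shift of 20.4 points. Feedback genes of the MAP kinase pathway showed 6 of 191 shared regions higher and 4 lower, near the share of all genes.

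Shared regions near myeloid genes of the granulocyte-monocyte lineage more often ranked higher in Flt3-ITD/Runx1-het. Of 121 shared regions near 25 genes, 73 (60.3%) ranked higher and the median shift was 2.73 points, against 50.1% and 0.01 points over all genes. A shift of 25 points or more was found at 8 regions higher (6.61%) and 4 lower (3.31%), against 3.67% and 3.29% over all genes. The shares found in 1 list lay near those of all genes, at 16.1% only in Flt3-ITD/Runx1-het and 14.4% only in Runx1-het, against 14.4% and 15.5%. Members that went the other way were Cebpd and Cebpe, factors of myeloid differentiation, with median shifts of −13.7 and −8.84 points over 2 shared regions each. By regions in 1 list only, Mpo, the myeloperoxidase gene, had 0 only in Flt3-ITD/Runx1-het and 2 only in Runx1-het. Fcgr3, an Fc receptor gene, had 1 only in Flt3-ITD/Runx1-het and 3 only in Runx1-het. Their shared regions did not go that way, with a shift of 21.4 points at the 1 of Mpo and a median of 5.71 points over the 5 of Fcgr3. Between Flt3-ITD and wild type the same list had a median of −0.53 points and 48.5% higher, and the difference between the backgrounds was not tested.

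The Ctsg locus had no shared region, and of the 2 lists compared, Flt3-ITD/Runx1-het held all of its regions. The Ctsg promoter region chr14:56102308-56102794 had a −log10 p of 32.6 in Flt3-ITD/Runx1-het, no peak in Runx1-het, 18.2 in Flt3-ITD and no peak in wild type. A region 2544 bp from Ctsg had 58.3 in Flt3-ITD/Runx1-het and none in Runx1-het, with 19.7 in Flt3-ITD and none in wild type. In all the Ctsg locus held 4 such regions, and 0 found only in Runx1-het. At the Ly6c2 promoter the values were 60.5 in Flt3-ITD/Runx1-het and 12.0 in Runx1-het, and 30.9 in Flt3-ITD with no peak in wild type. Cebpb, a factor of myeloid differentiation, had a region 74570 bp away with 103 in Flt3-ITD/Runx1-het and 21.3 in Runx1-het, and 52.1 in Flt3-ITD and 36.7 in wild type. Spi1, which encodes the myeloid and lymphoid factor PU.1, had a weak region with 46.8 in Flt3-ITD/Runx1-het and 10.2 in Runx1-het, and 33.6 in Flt3-ITD with no peak in wild type, and its shift was 37.1 points by −log10 p and 4.18 by fold enrichment. Cd33, a sialic acid binding receptor of myeloid cells, had 53.0 in Flt3-ITD/Runx1-het and 11.5 in Runx1-het, with a shift of 41.1 points, and of 6.19 by fold enrichment. Cebpa encodes a factor that directs granulocyte commitment. Its region 4899 bp outside the gene had 75.3 in Flt3-ITD/Runx1-het and 31.1 in Runx1-het, but 40.7 in Flt3-ITD and 44.4 in wild type. The Cebpa shift was 34.4 points by −log10 p and 17.2 by fold enrichment. Itgam, the myeloid integrin CD11b, was mixed, with a region of 43.2 found only in Flt3-ITD/Runx1-het and 2 regions that ranked lower there by −37.0 and −36.2 points.

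Loci known as targets of RUNX1 had 7 of 82 shared regions higher by 25 points or more (8.54%) and 2 lower (2.44%), against 3.67% and 3.29% over all genes, with a median shift of 1.70 points, and of −0.28 where fold enrichment gave the ranks. Between Flt3-ITD and wild type of set 1 the RUNX1 target list had a median of −1.58 points and 40.5% higher. The list shares Cebpa, Spi1 and Rag1 with the lineage lists. Ccnd3, which encodes cyclin D3, had a region inside the gene with 77.2 in Flt3-ITD/Runx1-het and no peak in Runx1-het, and 52.3 in Flt3-ITD and no peak in wild type. Myb, a factor of progenitor growth, had a region with 46.5 in Flt3-ITD/Runx1-het and no peak in Runx1-het, and 25.1 in Flt3-ITD and none in wild type. Cd4, which RUNX1 silences in T cells, had a region with no peak in Flt3-ITD/Runx1-het and 66.2 in Runx1-het, against 39.8 in Flt3-ITD and 44.4 in wild type. Csf2, which encodes the cytokine GM-CSF, had a region with 115 in Flt3-ITD/Runx1-het and 57.8 in Runx1-het, and 95.4 in Flt3-ITD and 25.8 in wild type, named here after its values were seen.

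Fewer regions near lymphoid genes were found only in Flt3-ITD/Runx1-het than only in Runx1-het. Of 276 regions near 22 lymphoid priming genes, 29 (10.5%) were found only in Flt3-ITD/Runx1-het and 58 (21.0%) only in Runx1-het, against 14.4% and 15.5% over all genes. Among their 189 shared regions, 7 (3.70%) ranked 25 points or more higher and 13 (6.88%) lower. The median shift was −1.41 points with 41.3% higher, which was not far from the housekeeping control genes, at −1.31 points and 36.4%. Between Flt3-ITD and wild type the lymphoid median was −0.22 points with 47.3% higher. Some lists of markers of other cell types had a like gap, and others did not. Stromal and endothelial genes had 6.98% of regions only in Flt3-ITD/Runx1-het and 31.8% only in Runx1-het, mast cell, basophil and eosinophil genes had 4.76% only in Flt3-ITD/Runx1-het and 17.5% only in Runx1-het, and dendritic cell genes had 10.8% only in Flt3-ITD/Runx1-het and 20.9% only in Runx1-het. T and NK cell genes had little gap, with 14.3% only in Flt3-ITD/Runx1-het and 15.7% only in Runx1-het. Macrophage genes had the reverse, with 20.4% only in Flt3-ITD/Runx1-het and 13.0% only in Runx1-het. The part of other cell types in the lymphoid values was not tested. The Rag1 promoter, chr2:101649355-101649829, had a −log10 p of 38.2 in Flt3-ITD/Runx1-het and 116 in Runx1-het, but 105 in Flt3-ITD and 107 in wild type, a shift of −40.7 points with loss of Runx1 and −5.30 without it. Rag1 in the double mutant was thus the low value among the 4 lists of set 1. In set 2 the Rag1 promoter had 34.5 in NUP98-HOXD13/Flt3-ITD and 40.4 in NUP98-HOXD13, and 26.6 in Flt3-ITD and 84.7 in wild type. The upstream promoter region of its partner Rag2, chr2:101624579-101624815, carried a weak peak of 27.8 in Runx1-het and none in the 7 other lists, while the other Rag2 promoter had 481 in Flt3-ITD/Runx1-het and 345 in Runx1-het.

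Other lymphoid regulators were lower in rank or absent at several regions. Ebf1, a factor of B cell commitment, had a region at chr11:44624559-44625041 with no peak in Flt3-ITD/Runx1-het and 69.6 in Runx1-het, and 33.1 in Flt3-ITD and none in wild type, so that the order was not that of Flt3-ITD alone. Foxo1, a factor of lymphoid survival, had 4 regions found only in Flt3-ITD/Runx1-het and 11 found only in Runx1-het. Its strongest such region had no peak in Flt3-ITD/Runx1-het and 56.3 in Runx1-het, and 14.9 in Flt3-ITD and 34.8 in wild type. Mef2c, a factor of lymphoid and myeloid priming, had 4 regions found only in Flt3-ITD/Runx1-het and 9 found only in Runx1-het. Dntt, the terminal transferase of lymphoid precursors, had 0 only in Flt3-ITD/Runx1-het and 5 only in Runx1-het. Bcl11a, a factor of lymphoid and globin gene control, had a region 85984 bp away with 23.9 in Flt3-ITD/Runx1-het and 85.5 in Runx1-het, and 56.6 in Flt3-ITD and 84.8 in wild type. Bcl11a was also among the exceptions, with 5 regions found only in each list. Ikzf1, the lymphoid factor Ikaros, had a region 8717 bp away with 51.7 in Flt3-ITD/Runx1-het and 13.0 in Runx1-het, in the opposite direction.

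**Figure D3:**
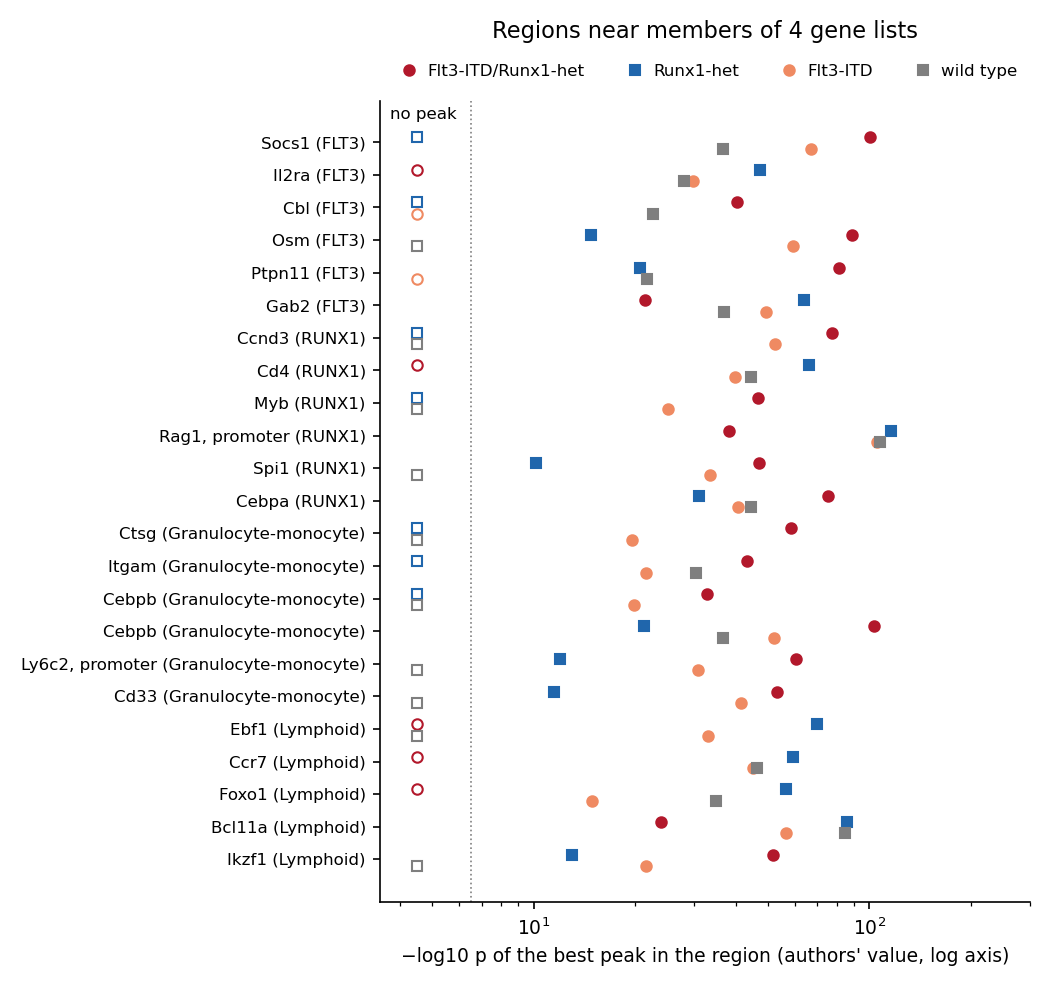
The −log10 p of the best peak (horizontal, log axis) in Flt3-ITD/Runx1-het and Runx1-het (upper symbols of each row) and in Flt3-ITD and wild type of set 1 (lower symbols), for the regions that the naming rule takes from the lists FLT3 pathway and STAT5 targets, RUNX1 target loci, granulocyte-monocyte and lymphoid priming. Open symbols at the left mark lists with no peak, and the myeloid rows, such as Ctsg and Ly6c2, have Flt3-ITD/Runx1-het to the right of Runx1-het, while most lymphoid rows have the reverse.

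The stem cell and progenitor genes showed no common direction. Stem cell self-renewal genes had 6 of 172 shared regions higher by 25 points or more and 6 lower, 3.49% in each direction, against 3.67% higher and 3.29% lower over all genes. Slamf1 had a promoter region with 27.6 in Flt3-ITD/Runx1-het and 62.7 in Runx1-het, and 46.4 in Flt3-ITD and 46.9 in wild type, a shift of −31.1 points. Ndn, which encodes the growth suppressor necdin of stem cells, had a promoter peak of 90.2 in Runx1-het and none in Flt3-ITD/Runx1-het, and 73.0 in Flt3-ITD and 82.3 in wild type. Mecom, which encodes the stem cell factor EVI1, had a region of 69.9 in Flt3-ITD/Runx1-het and none in Runx1-het, but 65.6 in Flt3-ITD and 68.1 in wild type. Mllt3, a regulator of stem cell maintenance, had a region of 81.0 in Flt3-ITD/Runx1-het and none in Runx1-het, and 45.6 in Flt3-ITD and 18.8 in wild type. HOX genes and their cofactors had the lowest median shift of the lists, −4.26 points over 71 shared regions, with 33.8% higher, against 36.4% higher and a median of −1.31 points for the housekeeping control genes, although only 1 region was 25 points or more higher and 1 lower. The one lower region was inside Hoxd4, with 38.0 in Flt3-ITD/Runx1-het and 108 in Runx1-het, against 49.7 in Flt3-ITD and 50.9 in wild type. Between Flt3-ITD and wild type of set 1 the HOX list had a median of 0.87 points over 66 regions, with 54.5% higher. The difference between the backgrounds was not tested.

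Survival and cell cycle brake genes had 7 of 97 shared regions higher by 25 points or more (7.22%) and 1 lower (1.03%), against 3.67% and 3.29% over all genes. Cdkn1a, which encodes the cell cycle inhibitor p21, had a region 11639 bp away with 63.3 in Flt3-ITD/Runx1-het and 13.0 in Runx1-het, and 35.7 in Flt3-ITD with no peak in wild type. Pmaip1, the pro-apoptotic gene NOXA, had a region with 61.8 in Flt3-ITD/Runx1-het and 26.5 in Runx1-het, and 65.7 in Flt3-ITD and 27.7 in wild type. Its shift of 31.6 points became 2.88 where regions within 500 bp were joined. Interferon response genes had 1 of 115 shared regions higher and 4 lower, and housekeeping genes 0 of 44 higher and 1 lower, with the median of −1.31 points given above.

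Genes of the fetal and neonatal programme and of stroma and endothelium had fewer regions found only in Flt3-ITD/Runx1-het than only in Runx1-het. Of 147 regions near 12 fetal and neonatal genes, 22 (15.0%) were found only in Flt3-ITD/Runx1-het and 39 (26.5%) only in Runx1-het, against 14.4% and 15.5% over all genes. Hmga2, a chromatin protein of fetal stem cells, contributed 6 of the regions only in Flt3-ITD/Runx1-het and 12 of those only in Runx1-het. Of 129 regions near 13 stromal and endothelial marker genes, 9 (6.98%) were found only in Flt3-ITD/Runx1-het and 41 (31.8%) only in Runx1-het, with a median shift of −3.09 points. Lama4, a laminin of vessel walls, had 0 regions only in Flt3-ITD/Runx1-het and 8 only in Runx1-het, and its strongest had no peak in Flt3-ITD/Runx1-het or Flt3-ITD, 84.6 in Runx1-het and 80.7 in wild type. Col1a2, a collagen I gene, had 0 only in Flt3-ITD/Runx1-het and 7 only in Runx1-het. Its region 4172 bp away had 15.0 in Flt3-ITD/Runx1-het and 63.9 in Runx1-het, but 63.5 in Flt3-ITD and 42.6 in wild type. The endothelial gene Cdh5, which encodes VE-cadherin and belongs to both lists, had 2 only in Flt3-ITD/Runx1-het and 7 only in Runx1-het. Kdr, a receptor of vascular growth factor, had 1 only in Flt3-ITD/Runx1-het and 6 only in Runx1-het. The promoters of these markers carried weak peaks in both lists, at 5 of 8 genes in Flt3-ITD/Runx1-het and 6 of 8 in Runx1-het. The promoter peaks stood between percentiles 12.6 and 47.7 of the Flt3-ITD/Runx1-het list and 18.0 and 52.0 of the Runx1-het list. Col3a1 and Pdgfra had no promoter peak in either, and Cxcl12 none in Flt3-ITD/Runx1-het. The part of such cells in these differences was not tested.

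**Figure D4:**
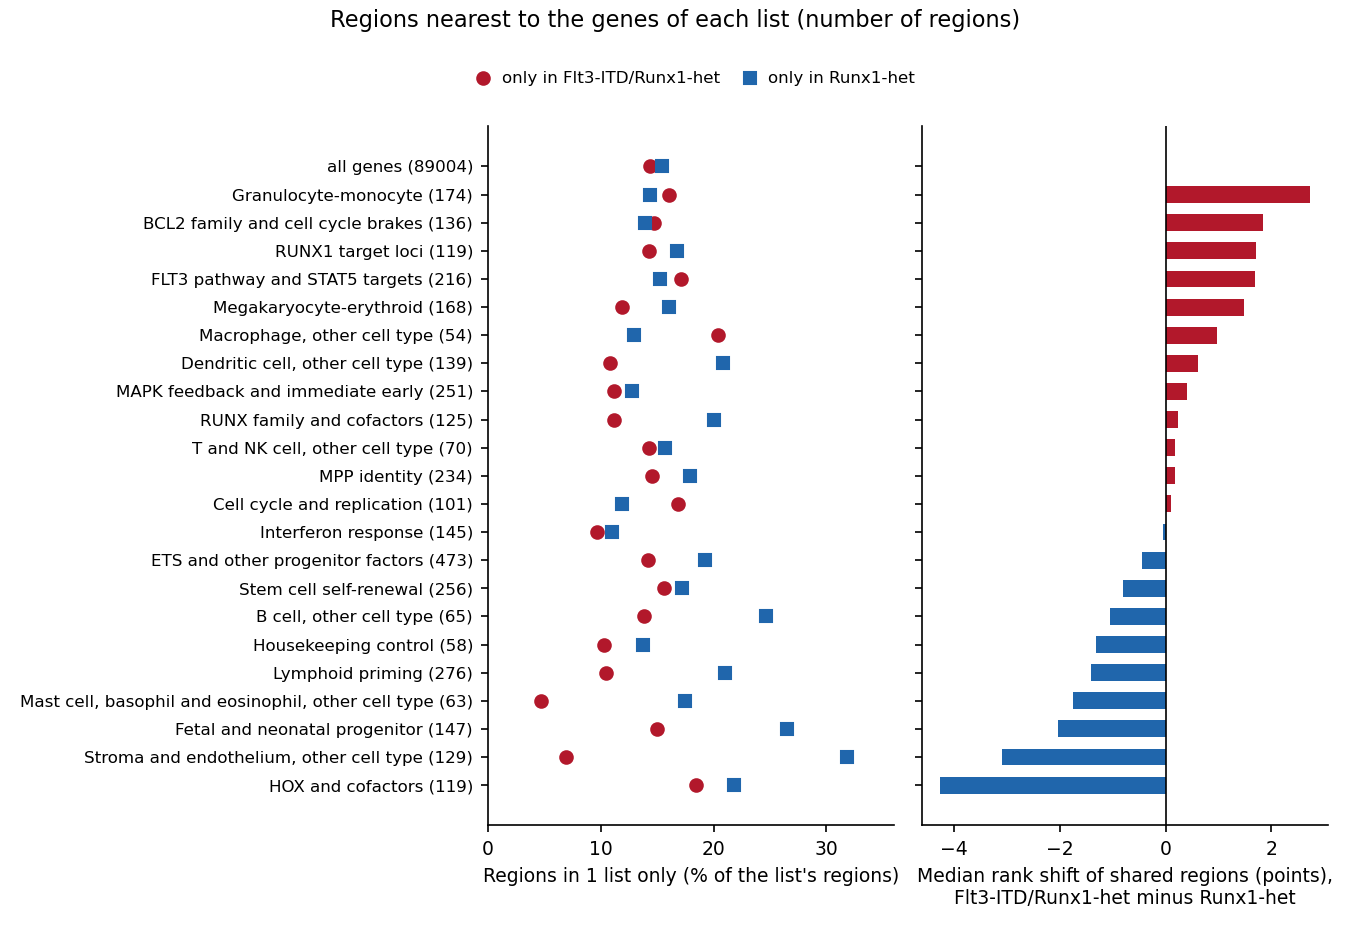
For all genes and each of 22 gene lists, the share of regions found only in Flt3-ITD/Runx1-het (circles) and only in Runx1-het (squares) on the left, and the median rank shift of shared regions on the right. Granulocyte-monocyte genes have the highest median, 2.73 points, HOX genes the lowest, −4.26 points, and stromal and endothelial genes the widest gap between 6.98% and 31.8%. With fold enrichment for ranks, 8 of the 22 medians changed sign.

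Promoter letters were described for the windows of the regions that moved, with 8 motifs searched and no test. The PU.1 letters occurred in 9 of 77 windows (11.7%) at regions 25 points or more higher in Flt3-ITD/Runx1-het, against 2 of 128 (1.56%) at those lower and 3.08% of 11920 windows at shared regions with smaller shifts. At regions found in 1 list the PU.1 letters did not follow that order, with 5 of 201 windows (2.49%) only in Flt3-ITD/Runx1-het and 3.44% only in Runx1-het. The 9 windows belonged to 8 genes, among them Ly6c2 with 2 overlapping windows, Traf3 (an adaptor of tumour necrosis factor receptors) and Itgb2l (an integrin chain). The E-box letters CAGCTG occurred in 39 of 128 windows (30.5%) at regions lower in Flt3-ITD/Runx1-het, against 16.9% at those higher and 14.6% at the rest. The RUNX letters were found in 40 of 201 windows (19.9%) at regions only in Flt3-ITD/Runx1-het, against 11.9% only in Runx1-het, and 19.7% of windows with no region also held them. Of the other motifs, the STAT letters had 12.9% against 6.88%, the AP-1 letters TGANTCA 13.4% against 8.47% and the C/EBP letters TTGCNNAA 14.4% against 9.79%. Windows with no region held STAT in 10.1%, AP-1 in 11.3% and C/EBP in 14.7%. Windows of these classes differed in base composition, with a median GC content of 56.0% at regions higher, 59.7% at regions lower and 62.0% at the rest. It was 55% at regions only in Flt3-ITD/Runx1-het, 59% only in Runx1-het and 47.7% in windows with no region.

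Among promoters, described here after their values were seen, the shift toward Flt3-ITD/Runx1-het was 58.6 points at Crisp3 and 48.7 points at Hopx, both printed above. The Hopx region chr5:77114884-77115642 had a −log10 p of 72.6 in Flt3-ITD/Runx1-het and 17.1 in Runx1-het, and 69.3 in Flt3-ITD with no peak in wild type of set 1. In set 2 the Hopx promoter had 11.5 in NUP98-HOXD13/Flt3-ITD, none in NUP98-HOXD13 or Flt3-ITD, and 48.0 in wild type, so the order of set 1 did not recur there. The promoter of Tnfsf11, which encodes the cytokine RANKL, had 98.6 in Flt3-ITD/Runx1-het and 31.8 in Runx1-het, and 83.4 in Flt3-ITD and 30.9 in wild type. The interferon-induced gene Ifi44l had 74.3 in Flt3-ITD/Runx1-het and 20.7 in Runx1-het at its promoter, and 55.8 in Flt3-ITD and 29.0 in wild type. These 3 promoters were higher with Flt3-ITD in both Runx1 backgrounds of set 1. In 3 promoters with large shifts the other way, Flt3-ITD/Runx1-het was the lowest of the 4 lists of set 1. That of Adamts12, an extracellular protease gene, had 13.8 in Flt3-ITD/Runx1-het and 72.3 in Runx1-het, and 55.8 in Flt3-ITD and 58.9 in wild type. Meox2, a homeodomain factor of vessels and muscle, had a promoter with 20.5 in Flt3-ITD/Runx1-het and 75.9 in Runx1-het, and 45.9 in Flt3-ITD and 47.2 in wild type. Dpyd, which degrades pyrimidines, had 20.5 in Flt3-ITD/Runx1-het and 85.0 in Runx1-het, and 66.3 in Flt3-ITD and 87.2 in wild type.

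The largest single differences lay mostly outside these lists. Among shared regions in the upper 50% of a list, the largest shifts toward Flt3-ITD/Runx1-het included Dpp4, the surface protease CD26, with 235 in Flt3-ITD/Runx1-het and 24.5 in Runx1-het, and 182 in Flt3-ITD with no peak in wild type. Adamts20, an extracellular protease gene, had 157 in Flt3-ITD/Runx1-het and 17.9 in Runx1-het, and 60.3 in Flt3-ITD with no peak in wild type. Of the 8 such named regions, 5 had no peak in wild type of set 1 and a peak in Flt3-ITD, namely those at Dpp4, Adamts20, Adamtsl1, Agbl1 and Tdrd3. That pattern was found at 8.65% of all shared regions and at 20.8% of the 2482 that ranked 25 points or more higher. The region nearest to Olfr97 had the largest shift, 74.8 points, but had 195 in Flt3-ITD and 174 in wild type, and reversed by fold enrichment. The largest shift toward Runx1-het was at Poc1b, a centriole gene, with 12.2 in Flt3-ITD/Runx1-het and 166 in Runx1-het, and 48.0 in Flt3-ITD and 79.3 in wild type. The Poc1b shift was −23.7 points by fold enrichment. All 8 of the regions named in that direction had a peak in all 6 other lists, and so did 61.3% of all shared regions. By locus, 78 of 16784 genes with a region had at least 5 more regions only in Flt3-ITD/Runx1-het than only in Runx1-het, and 152 had the reverse. Itpr1, a calcium release channel gene, held 12 regions found only in Flt3-ITD/Runx1-het and 2 found only in Runx1-het. Usp24, a deubiquitinase gene, held 0 only in Flt3-ITD/Runx1-het and 10 only in Runx1-het, and Arid1b, a subunit of the BAF chromatin remodeller, 6 only in Flt3-ITD/Runx1-het and 18 only in Runx1-het. Among genes with 8 or more shared regions, 33 had a median shift of 10 points or more and 41 of −10 points or less. The highest median was that of Ildr2, 22.1 points, with −2.97 points between Flt3-ITD and wild type, and the lowest that of Thsd7b, −22.6 points, with 4.78 points.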

How the data were processed

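ATAC-seq peak lists of 8 groups (2 samples each, 1 pooled list per group) were analysed. Per the submitters' processing notes the tools were Bowtie2 and MACS2 (versions not given) and the builds were mm10 and GRCm38. The sources used here give no thresholds, no filters, and neither a read shift nor duplicate removal. The authors deposited, per peak, a fold enrichment (a ratio over background), a −log10 p-value, a −log10 q-value and a score of 413 to 1000, which has no stated meaning and was not used. These values belong to the peak and were used only to rank or filter peaks within 1 list, so their size depends on depth, which was unknown.

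Peaks on chromosomes 1 to 19 were merged where they overlapped by 1 bp or more, and a region took its best −log10 p. Ranks were computed over the same shared regions in both lists. Peaks tied at a −log10 p of 3.30 at the limit of equal numbers were kept in list order. A promoter region overlaps a RefSeq GRCm38.p6 window of 250 bases before to 50 bases after a gene start. Other places were taken from RefSeq gene spans, without exons, introns or UTRs. Of 371 different genes in 22 lists, 361 were matched on autosomes.

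The members, lists and rules were chosen with earlier results of these data known. Named regions were the 8 strongest in 1 list only and the 8 with the largest shifts per direction, 1 per gene within 100 kb, so that regions without such a gene were passed over, 8 loci per direction by region counts and by median shift, up to 6 regions per gene list, and Flt3 and Runx1. The promoters printed or described by shift, the motifs, and the regions shared by all Flt3-ITD pairs were chosen after values were seen. Alternatives were equal numbers of peaks, the top 50000 peaks, −log10 q of at least 5, reciprocal overlap of 50%, joining within 500 bp, and fold enrichment for ranks. The merging and ranking were tested on simulated lists. Python 3.11.15, pandas 2.3.3, NumPy 2.4.6, SciPy 1.17.1 and matplotlib 3.10.9 were used.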

Additional observations from a re-analysis of the deposited data

Results flagged for a closer look

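For 5 named regions, of which that at Calcr was chosen after its values were seen, the shift with Flt3-ITD had 1 sign with loss of Runx1, at 25 points or more, and the opposite sign without it, at 10 points or more. The difference between the backgrounds was not tested, since each shift comes from 1 list per group. A region 4899 bp from Cebpa had a shift of 34.4 points between Flt3-ITD/Runx1-het and Runx1-het and of −11.0 points between Flt3-ITD and wild type. A region inside Ebf1 at chr11:44897248-44897634 had −31.9 points on the Runx1-het background and 24.3 points without it. The promoter region of Calcr, the calcitonin receptor gene, had −44.0 points with loss of Runx1 and 10.6 points without it. A region inside Ifih1, an RNA sensor of the interferon response, had −28.9 points with loss of Runx1 and 17.4 points without it, and one 51273 bp from Angpt1, a ligand of the receptor TIE2, had −32.9 points with and 12.5 points without. Of the 3792 regions with a shift of 25 points or more that were ranked in all 4 lists of set 1, 473 (12.5%) had such an opposite shift and 1594 (42.0%) had a shift of 10 points or more in the same direction.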

How the results depend on the processing

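No paired analysis was possible because each group had 1 pooled list and no value per sample, so neither a replicate block nor leaving out a replicate could be run. The counts of regions in 1 list, shared, strong or shifted stayed within 1.5 times the reported values with equal numbers of peaks, with −log10 q of at least 5 and with joining within 500 bp. With the top 50000 peaks there were 5981 regions only in Flt3-ITD/Runx1-het, 5331 only in Runx1-het and 37539 shared, 9 strong regions only in Flt3-ITD/Runx1-het and 5 only in Runx1-het, and 1574 regions in both Flt3-ITD lists only against 1132 in both lists without it; fewer peaks enter by construction, and the order of the first pair of counts turned. Strong regions only in Flt3-ITD/Runx1-het numbered 352, and only in Runx1-het 330, with reciprocal overlap of 50%, where wide and narrow peaks at 1 place are counted apart. With fold enrichment for ranks 139 were only in Flt3-ITD/Runx1-het and 85 only in Runx1-het, and the cause was not tested. The shift turned at Ubtf with reciprocal overlap (−9.42 points) and, by fold enrichment, at Olfr97 (−11.1 points) and Defb47 (3.75 points), and the cause was not tested. Over the regions named by rule, 385 of the values under alternatives stayed past 25 points in the same direction and 18 fell below it. Fold enrichment gave 16 of the 18, and none came from equal numbers of peaks or from −log10 q of at least 5. With the top 50000 peaks most named regions had no value, so the 385 come mainly from the other alternatives. The medians of the gene lists were less stable. Of the 22 medians, 8 changed sign with fold enrichment, 2 with joining within 500 bp and 2 with the top 50000 peaks. Depth, unknown here, limits regions in 1 list only most, since these are weak.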

Other observations

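The lists of genes not described above gave the following values. Over all genes, 14.4% of regions were only in Flt3-ITD/Runx1-het and 15.5% only in Runx1-het, and 3.67% of shared regions ranked 25 points or more higher and 3.29% lower. Megakaryocyte and erythroid genes had 3 of 121 shared regions that ranked 25 points or more higher in Flt3-ITD/Runx1-het and 2 that ranked lower, with 11.9% of their regions only in Flt3-ITD/Runx1-het and 16.1% only in Runx1-het. The RUNX family and its cofactors had 4 of 86 higher and 5 lower, and of 125 regions 14 were only in Flt3-ITD/Runx1-het and 25 only in Runx1-het. ETS and other progenitor factors had 12 of 315 higher and 16 lower, MPP identity genes 6 of 158 higher and 10 lower, and cell cycle genes 2 of 72 higher and 1 lower. Among markers of other cell types, mast cell, basophil and eosinophil genes had 4.76% of regions only in Flt3-ITD/Runx1-het and 17.5% only in Runx1-het. Dendritic cell genes had 10.8% only in Flt3-ITD/Runx1-het and 20.9% only in Runx1-het, and B cell genes 13.8% only in Flt3-ITD/Runx1-het and 24.6% only in Runx1-het. T and NK cell genes had 14.3% only in Flt3-ITD/Runx1-het and 15.7% only in Runx1-het. Macrophage genes had 20.4% only in Flt3-ITD/Runx1-het and 13.0% only in Runx1-het.

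Neighbouring shared regions hardly shifted together. The Spearman correlation between the shifts of adjacent regions was −0.05 for 9104 pairs less than 2 kb apart, 0.03 for 21770 pairs 2 to 10 kb apart, 0.07 for 26678 pairs 10 to 50 kb apart and 0.12 for 9382 pairs farther apart. These are descriptions across regions of the same lists.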
